A study of Mus musculus with 8 samples.

Results

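The short TCR β-chain CDR3s of endogenous CD8+ T cells were examined in 8 melanoma-bearing mice. A CDR3 was counted as short when its amino acid sequence had 11 letters or fewer, and every row of the 8 β-chain tables that met this rule was kept. The rule gave 3697 rows of 60131, where a row is 1 CDR3 nucleotide sequence with its V and J segments in 1 mouse. The short rows held 5206 reads, 3427 distinct nucleotide sequences and 2663 distinct amino acid sequences. They were set against the 54657 rows of 12 to 16 letters, while 1777 rows of 17 letters or more were left out of both classes. All mice were C57BL/6 females, 6 to 8 weeks old at the start, that received B16F10 melanoma cells in the skin on day 0 and cyclophosphamide (CTX), a lymphodepleting drug, at 300 mg/kg on day 3. On day 5 they were given CD8+ cells of Pmel-1 mice, whose transgenic TCR recognizes the melanoma antigen gp100 and which bear the Thy1.1 marker, and human IL-2 at 10000 IU on that and the following days, 3 in all. The 3 mice of the CTX group had no further treatment. The 5 mice of the CTX/CD4 group, CTX_CD4 in the labels, were also given 200 μg of the anti-CD4 antibody GK1.5 on days 10, 17 and 24. On day 25, CD8+ cells without Thy1.1 were sorted from inguinal lymph nodes and spleen together, a gate set to leave out the transferred Pmel-1 cells, and the 2 organs cannot be told apart. A β-chain CDR3 of 15 letters with TRBV14, the V segment of the Pmel-1 receptor, and TRBJ1-6 was listed in 1 nucleotide form in all 8 mice, by 46, 3 and 28 reads in the CTX mice and 23, 51, 18, 23 and 28 in the CTX/CD4 mice. It belongs to the class of 12 to 16 letters, and whether transferred cells remained in the sort was not tested. The tables hold TCR sequences only, and the labelled cell type could not be checked against marker genes.

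The CDR3 is the loop of the TCR that lies across the peptide, and in the β-chain it is built where a V, a D and a J segment are joined. During joining, the segment ends are trimmed back and nucleotides without a template (N nucleotides) are added by terminal deoxynucleotidyl transferase. A CDR3 is therefore short when the segments are short, when they are trimmed far back, or when little of D and few N nucleotides lie between V and J. Short CDR3s with few N nucleotides are known from T cells that form before birth, when the transferase is hardly expressed, and sequences of this kind tend to recur between individuals.

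The germline pieces that enter the CDR3 and the most abundant short sequence of each mouse show how such a loop is put together. The germline pieces run 5′ to 3′ on the coding strand of chromosome 6 (GRCm38, GENCODE vM21), from the conserved cysteine codon of V to its end, or from the start of J to the conserved phenylalanine codon. TRBJ2-7 brings the shortest of all J pieces and TRBJ1-1, with TRBJ1-2, the shortest of its cluster, and both were used more often by short rows. TRBJ1-6 brings the longest.
TRBJ2-7, chr6:41543810-41543828, 19 nt: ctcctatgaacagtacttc
TRBJ1-1, chr6:41533864-41533883, 20 nt: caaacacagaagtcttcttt
TRBJ1-6, chr6:41535554-41535578, 25 nt: ttcctataattcgcccctctacttt
TRBV20, chr6:41188964-41188977, 14 nt: tgtggtgctaggga
TRBV13-1, chr6:41116453-41116468, 16 nt: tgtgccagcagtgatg
TRBV13-2, chr6:41121817-41121832, 16 nt: tgtgccagcggtgatg
TRBV5, chr6:41062787-41062803, 17 nt: tgtgccagcagccaaga
TRBD1, chr6:41533201-41533212, 12 nt: gggacagggggc
In the short CDR3s that follow, capitals mark nucleotides that the deposited table assigned to no segment. Each is the short row with the most reads in its mouse, out of 10000 reads per library.
CTX mouse 1, YAEQFF, TRBJ2-1, 9 reads: tatgctgagcagttcttc
CTX mouse 2, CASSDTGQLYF, TRBV13-1 and TRBJ2-2, 7 reads: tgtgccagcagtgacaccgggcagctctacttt
CTX mouse 3, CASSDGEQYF, TRBV13-1 and TRBJ2-7, 6 reads: tgtgccagcagtgatgGtgaacagtacttc
CTX/CD4 mouse 1, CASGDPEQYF, TRBV13-2 and TRBJ2-7, 17 reads: tgtgccagcggtgatCCtgaacagtacttc
CTX/CD4 mouse 2, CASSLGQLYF, TRBV16 and TRBJ2-2, 14 reads: tgtgcaagcagcttagggcagctctacttt
CTX/CD4 mouse 3, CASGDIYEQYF, TRBV13-2 and TRBJ2-7, 6 reads: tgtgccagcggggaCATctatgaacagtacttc
CTX/CD4 mouse 4, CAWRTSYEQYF, TRBV31 and TRBJ2-7, 71 reads: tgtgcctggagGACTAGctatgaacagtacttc
CTX/CD4 mouse 5, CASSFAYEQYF, TRBV14 and TRBJ2-7, 123 reads: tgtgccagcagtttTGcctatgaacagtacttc
None of these 8 sequences had a D segment assigned, and 5 of the 8 used TRBJ2-7.

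Most short rows lay just under the limit. There were 2827 rows of 11 letters, 665 of 10, 116 of 9, 55 of 8, 17 of 7, 15 of 6 and 2 of 5, against a modal length of 14 letters that held 29.9% of all β-chain rows. Of the short rows, 48 (1.30%) did not begin with the conserved cysteine and end with the conserved phenylalanine, against 0.163% of rows of 12 to 16 letters. The limit cut through gradients that ran on either side of it. The share of rows with TRBJ2-7 was 48.9% at 10 letters, 43.5% at 11, 39.6% at 12 and 26.9% at 13, and the share with a D assigned was 19.3%, 36.1%, 50.5% and 65.5% at the same lengths (means of 8 mice, with no test).

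CDR3s of 11 letters or fewer made up a similar share of the β-chain rows in each of the 8 mice, and the groups were not separated. The share of rows was 6.20%, 6.64% and 5.66% in the CTX mice and 5.72%, 6.39%, 6.44%, 6.06% and 5.92% in the CTX/CD4 mice, in the order of their replicate numbers. The ranges overlapped, with the highest and the lowest value both in the CTX group. The means were 6.17% ± 0.488 (SD, n = 3 mice) and 6.11% ± 0.308 (SD, n = 5), and the exact Mann–Whitney U-test (two-sided) gave p = 1. By reads, the share was 6.24%, 6.50% and 5.69% in the CTX mice and 5.99%, 6.44%, 6.17%, 6.54% and 8.49% in the CTX/CD4 mice. CTX/CD4 mouse 5 stood above the other 7 mice, with a Wilson 95% interval of 7.96% to 9.05%, while the remaining CTX/CD4 mice lay within 5.99% to 6.54%. The mean difference by reads was 0.583 percentage points (exact Mann–Whitney U-test, two-sided, p = 0.571, n = 3 and 5), and the smallest p that 3 mice against 5 allow is 0.0357. Without the rows of 10 or more reads the difference was −0.0194 percentage points (exact p = 1). Intervals cover counting error only, because no molecular identifiers were named and PCR reads are not independent molecules.

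**Figure D1:**
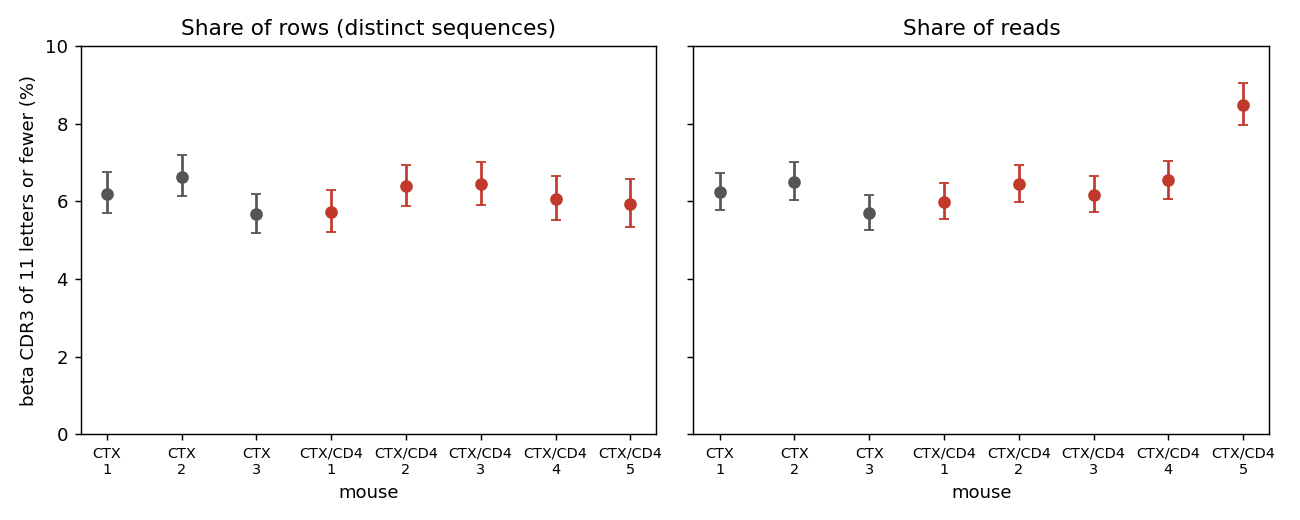
Share of β-chain CDR3s of 11 letters or fewer in each mouse, in percent of rows (left) and of reads (right), with Wilson 95% intervals. By rows the 8 mice lie between 5.66% and 6.64%, and by reads CTX/CD4 mouse 5 lies apart at 8.49%.

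Short CDR3s were shorter mainly between V and J and at the J end. When each row from cysteine to phenylalanine was matched base by base to the germline ends of its V and J, the mean CDR3 was 32.1 nt long in short rows and 42.0 nt in rows of 12 to 16 letters. Of the difference of 9.86 nt ± 0.0959 (SD, n = 8 mice), 51.2% lay between the V and J matches, where D and N nucleotides are found. Deeper trimming of J made up 28.2%, deeper trimming of V 10.6%, the choice of shorter J segments 8.60% and the choice of shorter V segments 1.43%. The parts sum to the length that defines the class, so they are given with no test.

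The J end was trimmed by 5.54 nt ± 0.115 in short rows and by 2.76 nt ± 0.0361 in the longer class (SD, n = 8). At least 6 nt of J were missing in 51.6% of short rows and in 15.9% of the longer ones, and at most 2 nt were missing in 13.4% and 48.9%. Deeper J trimming was also measured within a single segment. In TRBJ2-7, the J end lost 5.25 nt ± 0.169 in short rows and 3.55 nt ± 0.0299 in longer rows, and in TRBJ1-1 it lost 5.90 nt ± 0.433 and 2.53 nt ± 0.0779 (SD, n = 8). V lost 3.82 nt and 2.78 nt in the 2 classes. The sequence of CTX/CD4 mouse 1 printed above keeps 15 of the 16 nt of TRBV13-2, while its TRBJ2-7 part begins 6 nt into the segment.

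Joins without any base between the V and J matches were rare in both classes and more frequent in short rows. They made up 5.91% ± 0.637 of short rows (5.15% to 6.87% over the 8 mice) and 0.143% ± 0.0446 of rows of 12 to 16 letters, or 214 of 3649 and 78 of 54568 rows. The ranges of the classes did not overlap. The deposited positions gave the same direction by another measure. Short rows held 2.54 ± 0.0812 unassigned nucleotides per row and longer rows 2.99 ± 0.0491 (SD, n = 8), with fewer in the short rows of 8 of 8 mice. No unassigned nucleotide was listed in 24.0% ± 2.09 of short rows and in 15.7% ± 0.408 of longer rows. A D remnant too short to be assigned counts as unassigned here, and in 371 short rows the deposited V and J positions overlapped.

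**Figure D2:**
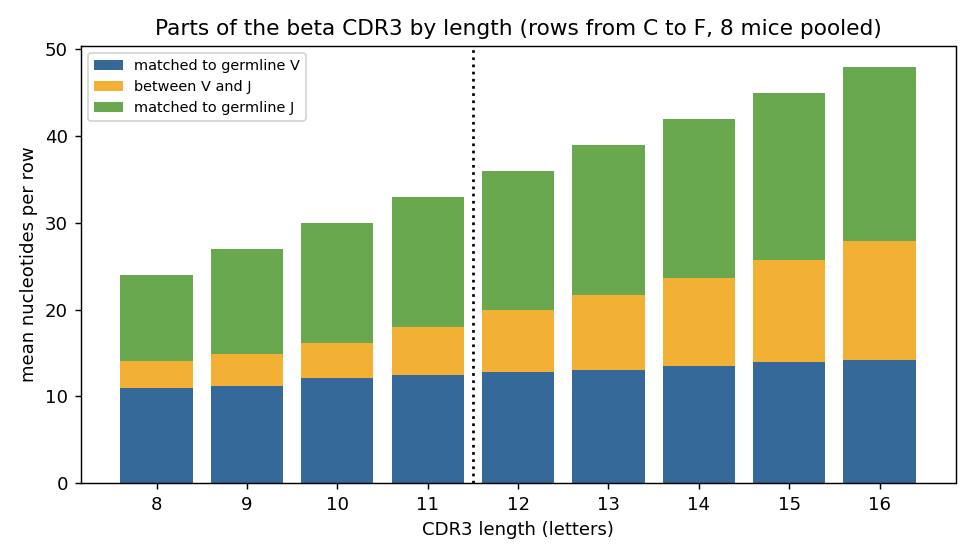
Mean nucleotides per row matched to germline V, between V and J, and matched to germline J, for CDR3s of 8 to 16 letters that run from cysteine to phenylalanine (8 mice pooled). The dotted line is the limit of 11 letters, and the middle and J parts shrink more than the V part.

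A D segment was assigned less often in short rows, at 32.2% ± 2.08 of rows against 74.6% ± 0.419 of longer rows (SD, n = 8). D contributed 2.08 nt ± 0.143 per short row and 6.10 nt ± 0.0478 per longer row. Among short rows with a D, TRBD1 was named in 72.8% (pooled over mice), against 55.8% in longer rows. TRBD2 lies downstream of the TRBJ1 cluster and is not expected in a join to TRBJ1, yet 53 of 304 short rows with TRBJ1 and a D were listed with TRBD2 (17.4%), against 934 of 10935 longer rows (8.54%). The D listed is uncertain in at least these rows. Unassigned nucleotides numbered 1.67 ± 0.129 in short rows with a D and 2.96 ± 0.110 in those without. In longer rows they numbered 2.50 ± 0.0426 with a D and 4.43 ± 0.0785 without.

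The use of J segments differed between the length classes for each of the 12 segments tested. Rows per segment were compared within mice by the edgeR quasi-likelihood test with Benjamini-Hochberg adjustment, and 12 of 12 segments passed an adjusted p of 0.05 (100% of those tested). Of the 12 segments, 2 were higher in short rows (16.7%) and 10 were lower (83.3%). The germline length of J is part of the length that defines the classes, so part of these differences follows from the rule itself. TRBJ2-7 alone was the J segment of 44.7% ± 2.24 of short rows and of 20.8% ± 0.779 of rows of 12 to 16 letters (SD, n = 8). Its share of short rows was 46.3%, 46.6% and 46.4% in the CTX mice and 46.5%, 41.1%, 45.1%, 42.3% and 42.9% in the CTX/CD4 mice, and its share of longer rows did not exceed 21.8% in any mouse. The log2 ratio was 1.10 (SE 0.0446, edgeR adjusted p = 3.05e-39). TRBJ1-1 was used by 18.4% ± 1.34 of short and 9.44% ± 0.492 of longer rows, a log2 ratio of 0.96 (edgeR adjusted p = 9.10e-26). Together the 2 segments were used by 63.1% ± 2.09 of short rows and 30.3% ± 0.688 of longer ones.

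Among the J segments lower in short rows, the largest log2 ratios were those of TRBJ1-6 at −1.74 and TRBJ2-3 at −1.73. They were followed by TRBJ1-4 at −1.48, TRBJ2-2 at −1.36, TRBJ1-5 at −1.23, TRBJ1-3 at −1.15 and TRBJ1-2 at −1.01. The smallest were those of TRBJ2-1 at −0.63, TRBJ2-5 at −0.57 and TRBJ2-4 at −0.43. With a limit of 10 letters TRBJ1-4 was lowest at −2.25, followed by TRBJ1-2 at −1.91 and TRBJ1-5 at −1.81, while TRBJ1-6 stood at −1.11. TRBJ1-6, with the longest germline piece, was found in 30 short rows, or 0.750% ± 0.595, against 2.71% ± 0.156 of longer rows. The germline pieces were 19 to 25 nt long, and Spearman's rho between their length and the share of a segment's rows that were short was −0.72 over the 12 J segments, given as a description. Length did not order the segments fully, since TRBJ1-1 and TRBJ1-2 both bring 20 nt and 11.6% and 3.23% of their rows were short. Shares within a library sum to 100%, so a rise of 2 frequent segments lowers the rest. With TMM scaling the median log2 ratio moved from −1.08 to −0.39, 3 segments were called higher and 6 lower, and TRBJ2-1, TRBJ2-4 and TRBJ2-5 turned to 0.06, 0.25 and 0.12. Of these, TRBJ2-4 passed (edgeR adjusted p = 0.0192), where its adjusted p lay between 2.95e-06 and 0.156 over all alternatives, with TRBV13 rows alone the highest. TRBJ2-7 and TRBJ1-1 were higher under either scaling. Within TRBV13 rows, an alternative chosen after seeing the data, 2 J segments were higher and 8 lower. TRBJ1-5 passed neither there (−0.53, edgeR adjusted p = 0.141) nor with TMM scaling (−0.55, edgeR adjusted p = 0.117). TRBJ1-2 and TRBJ1-3 moved to −0.32 and −0.46 with TMM scaling and still passed (edgeR adjusted p = 0.0431 and 0.0311).

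**Figure D3:**
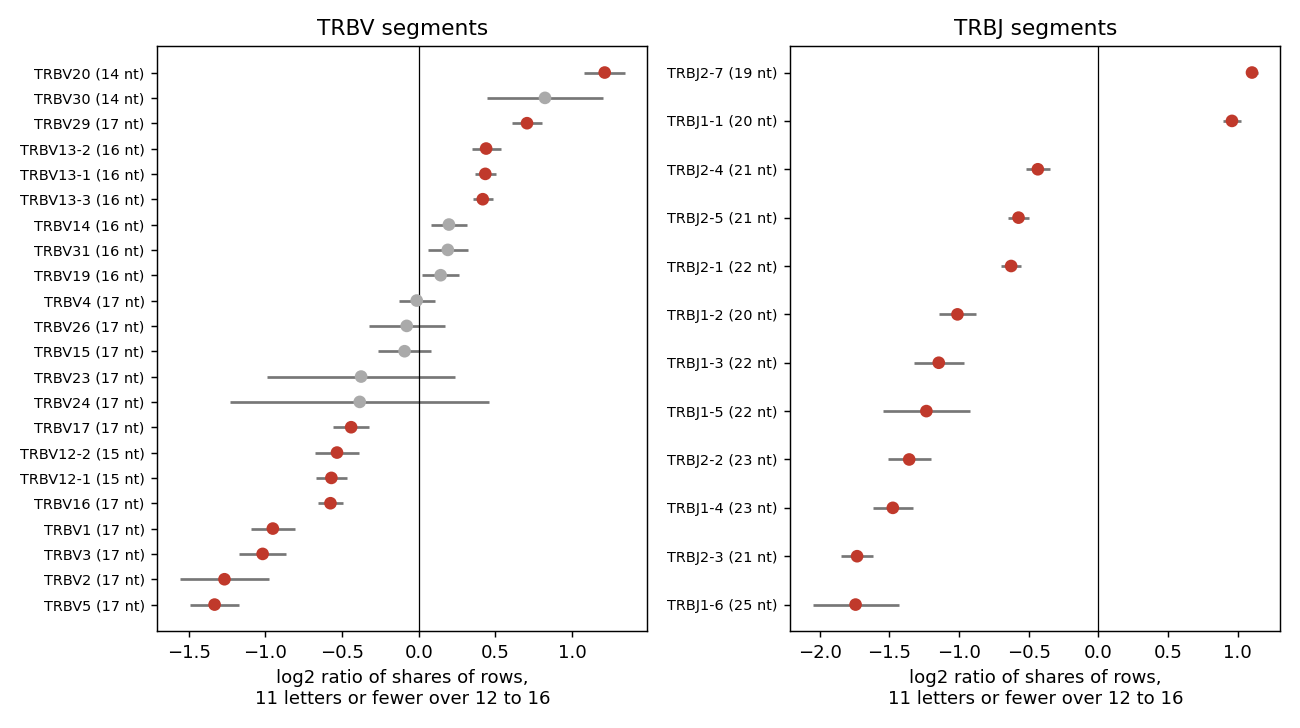
Log2 ratio of the share of rows that used a TRBV (left) or TRBJ (right) segment, CDR3s of 11 letters or fewer over 12 to 16 letters, with the SE of the fit and the germline length in brackets. Red points passed an adjusted p of 0.05 in the edgeR quasi-likelihood test, and TRBJ2-7, TRBJ1-1 and TRBV20 lie farthest to the right of the segments that passed.

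Of 22 V segments tested in the same way, 13 passed (59.1%), 5 higher in short rows (22.7%) and 8 lower (36.4%). Germline V length is likewise part of the length that defines the classes. TRBV20, with a germline piece of 14 nt, was highest. Its share of short rows was 6.41%, 6.01% and 3.35% in the CTX mice and 5.45%, 3.20%, 7.55%, 5.91% and 6.55% in the CTX/CD4 mice, against at most 2.71% of longer rows in any mouse, so that the classes did not overlap. The log2 ratio was 1.21 (SE 0.134, edgeR adjusted p = 1.13e-14), and 13.5% of all TRBV20 rows were short. TRBV30, the other segment with 14 nt, had a log2 ratio of 0.82 that did not pass (edgeR adjusted p = 0.0505). It passed with TMM scaling (edgeR adjusted p = 0.0429) and in DESeq2 (adjusted p = 0.0217), and its adjusted p was 0.137 with reads in place of rows and 0.702 with a limit of 10 letters.

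The remaining V segments higher in short rows were TRBV29 at a log2 ratio of 0.71, TRBV13-2 at 0.44, TRBV13-1 at 0.43 and TRBV13-3 at 0.42. TRBV13-2 and TRBV13-3 did not pass with reads in place of rows (0.35 and 0.26, edgeR adjusted p = 0.0628 and 0.0696), and TRBV13-3 turned to −0.08 with a limit of 10 letters. Taken as a family, TRBV13 was used by 35.6% ± 2.87 of short rows and 26.3% ± 1.06 of longer ones (SD, n = 8). Those lower were TRBV5 at −1.33, TRBV2 at −1.27, TRBV3 at −1.02, TRBV1 at −0.95, TRBV16 at −0.58, TRBV12-1 at −0.57, TRBV12-2 at −0.53 and TRBV17 at −0.44. Of these, TRBV2 and TRBV12-2 did not pass with a limit of 10 letters, where TRBV17 moved to −1.20. TRBV17 did not pass with reads in place of rows or within TRBJ2-7 rows. Germline length did not order them fully here either. TRBV29 brings 17 nt and was higher, while TRBV12-1 and TRBV12-2 bring 15 nt and were lower, and rho over the 22 V segments was −0.58. The CDR3 pieces of TRBV2 and TRBV5, of TRBV12-1 and TRBV12-2, and of TRBV13-1 and TRBV13-3 are identical, and these pairs are told apart only by sequence upstream of the CDR3.

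The most frequent combinations in short rows joined a TRBV13 segment or TRBV29 to TRBJ2-7. TRBV13-3 with TRBJ2-7 made 245 short rows (6.63%, against 2.13% of longer rows) and TRBV13-1 with TRBJ2-7 made 230 (6.22% against 1.96%). TRBV29 with TRBJ2-7 made 144 rows (3.90% against 0.840%). All TRBV13 joins to TRBJ2-7 together took 16.3% ± 1.46 of short rows and 5.29% ± 0.366 of longer rows in the 8 mice. The V differences were not confined to other J segments. Within TRBJ2-7 rows, an alternative chosen after seeing the data, 13 of 20 V segments passed, 12 of them also in the whole set. There TRBV1 moved from −0.95 to −0.44 (edgeR adjusted p = 0.0492) and TRBV29 from 0.71 to 1.12.

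The residues in the middle of the loop differed in composition. Letters from the fifth to the fifth from the end were counted, which are the positions most exposed to the peptide, in rows of 9 letters or more. Of the 20 amino acids, 9 differed between the classes (45%), 4 higher (20%) and 5 lower (25%), each in 8 of 8 mice by the exact two-sided sign-flip test (p = 0.00781, the smallest that 8 mice allow, adjusted p = 0.0174). Tyrosine was 8.55% ± 0.673 of middle letters in short CDR3s and 4.89% ± 0.118 in longer ones (SD, n = 8), and aspartate was 12.3% ± 0.848 and 9.23% ± 0.196. Phenylalanine (1.82% and 1.18%) and lysine (0.887% and 0.570%) were the other 2 higher residues. Glycine was lower at 19.99% ± 1.11 against 21.9% ± 0.125, as were asparagine (5.73% and 7.68%), alanine (7.07% and 8.39%), tryptophan (1.28% and 2.43%) and glutamine (4.89% and 5.72%). Glycine, tryptophan, glutamine, aspartate, threonine, arginine and leucine are residues that D segments can encode. Of these, glycine, tryptophan and glutamine were lower and aspartate was higher. Threonine, arginine and leucine did not pass (exact sign-flip adjusted p = 0.680, 0.616 and 0.192). An 11-letter CDR3 has only 3 middle letters, and these can be germline residues of V and J themselves. In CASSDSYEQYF, for example, the aspartate of TRBV13-1 and the tyrosine of TRBJ2-7 are both counted, so the higher aspartate and tyrosine include germline letters. A longer CDR3 has more middle letters, of which the same germline letters make up a smaller share. The classes were thus compared over windows of unequal size, and how much of the differences follows from this was not tested. Weighted by reads, 6 residues passed, and glycine, alanine and lysine no longer did (exact sign-flip adjusted p = 0.0893, 0.839 and 0.433). Against rows of 14 letters 8 passed, without alanine. With 1 more letter counted at each side, 15 residues passed and the tyrosine difference was 1.32 percentage points in place of 3.66, but aspartate no longer did (a difference of 0.243 percentage points, exact sign-flip adjusted p = 0.243, and 0.0223 to 0.0347 under the other alternatives).

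Most short rows were seen once, as were most longer rows. Rows of 1 read made up 80.8% ± 5.54 of short rows (SD, n = 8), 2.23 ± 2.22 percentage points less than of longer rows, and rows of 2 to 9 reads made up 2.17 ± 2.14 points more, each in 6 of 8 mice. Neither passed the exact two-sided sign-flip test after adjustment over 3 classes (p = 0.0391, adjusted p = 0.0586 for both). Rows of 10 or more reads differed by 0.0606 ± 0.332 points (exact sign-flip p = 0.641). Thus 0 of 3 classes were called (0%), and 2 of 3 had an unadjusted exact p under 0.05. When reads were summed over rows with the same amino acid sequence, V and J, rows of 1 read and of 2 to 9 reads both passed (adjusted p = 0.0117, exact sign-flip test, and 0.0117 to 0.117 over all alternatives for rows of 1 read), each in 8 of 8 mice.

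Abundant short CDR3s were found in 4 of the 5 CTX/CD4 mice and in none of the 3 CTX mice. Short rows of 10 or more reads numbered 0, 0 and 0 in the CTX mice, whose largest short rows had 9, 7 and 6 reads. In the CTX/CD4 mice they numbered 5, 2, 0, 3 and 7, with 17, 14, 6, 71 and 123 reads in the largest. Of the 5 rows of CTX/CD4 mouse 1, 1 was the incomplete sequence YAEQFF, described at the end. CTX/CD4 mouse 3 had none, so the groups overlapped. As a share of short rows these were 0.881% ± 0.811 in the CTX/CD4 group (SD, n = 5) against 0% (exact Mann–Whitney U-test, two-sided, p = 0.107, adjusted p = 0.864 over 11 features). Rows of 12 to 16 letters with 10 or more reads were present in every mouse, at 14, 8 and 8 in the CTX mice and 36, 15, 22, 47 and 88 in the CTX/CD4 mice. As a share of longer rows they were also higher in the CTX/CD4 mice, at 0.703% ± 0.594 (SD, n = 5) against 0.135% ± 0.0487 (SD, n = 3). The short share minus the longer share did not separate the groups (exact Mann–Whitney U-test, two-sided, p = 0.25, adjusted p = 0.960). Short rows of any count numbered 499, 566 and 448 in the CTX mice and 404, 531, 490, 423 and 336 in the CTX/CD4 mice. Whether these numbers limit the count of abundant short rows was not tested.

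CTX/CD4 mouse 5 held the largest short clones. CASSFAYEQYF (TRBV14 and TRBJ2-7) was the second most abundant β-chain of its library at 1.23% of reads (Wilson 95% interval 1.03% to 1.47%). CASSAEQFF (TRBV17 and TRBJ2-1), of 9 letters, followed with 78 reads and no unassigned nucleotide.
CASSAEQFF: tgtgctagcagtgctgagcagttcttc
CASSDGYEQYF: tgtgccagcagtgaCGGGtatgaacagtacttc
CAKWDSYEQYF: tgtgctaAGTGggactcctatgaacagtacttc
The last 2 of these had 42 and 40 reads, and the 7 short rows of 10 or more reads together took 41.6% of the short reads of mouse 5. In CTX/CD4 mouse 4, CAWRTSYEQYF (TRBV31 and TRBJ2-7), with 6 unassigned nucleotides, was the most abundant β-chain of the library at 0.71% of reads (0.563% to 0.895%). Neither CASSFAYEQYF nor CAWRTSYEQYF was found as the same nucleotide sequence in another mouse. Their specificity was not measured.

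**Figure D4:**
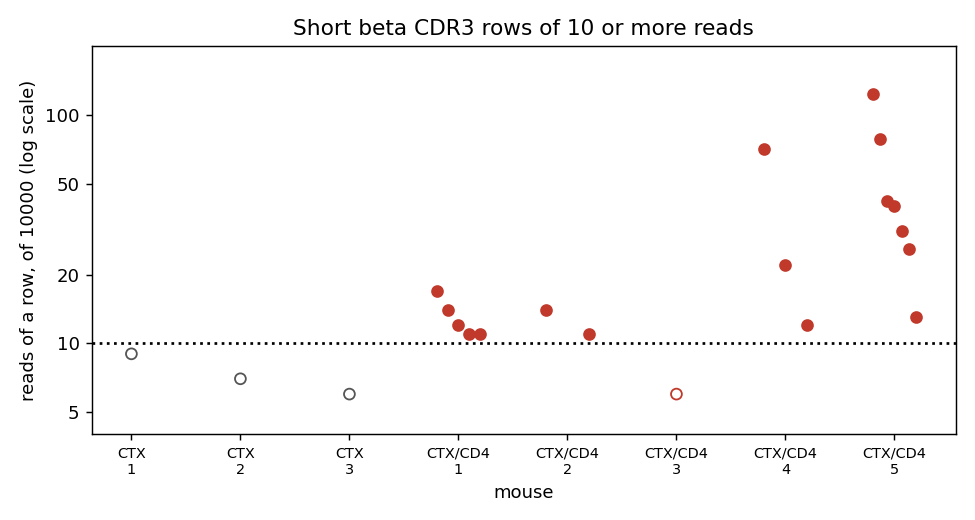
Reads of each short β-chain row with 10 or more reads (filled points, log axis, of 10000 reads) in the 8 mice. Open points give the largest short row of a mouse without any, which is 9, 7 and 6 reads in the CTX mice and 6 in CTX/CD4 mouse 3.

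The groups were not separated by any of the features tested in short rows. Over 22 comparisons of nucleotides per segment, D use, TRBJ2 use, count classes and row ends, as levels in short rows and as differences from longer rows, 0 passed (0%), 0 had an unadjusted exact Mann–Whitney p under 0.05, and the lowest adjusted p was 0.864. With 3 mice against 5, the exact Mann–Whitney test allows no p below 0.0357. A feature could pass after adjustment only if most features of its kind also separated the groups completely. The count of 0 after adjustment therefore decides little, while the unadjusted count shows that no feature separated the groups completely. Unassigned nucleotides were 2.54 ± 0.0880 in the CTX group (SD, n = 3) and 2.54 ± 0.0875 in the CTX/CD4 group (SD, n = 5). V use of short rows was called for 0 of 19 segments (0%) by edgeR and by DESeq2, with 0 under an unadjusted p of 0.05 by either. The lowest p was that of TRBV3, at a log2 ratio of CTX/CD4 over CTX of −0.52 (SE 0.326, edgeR adjusted p = 0.934). TRBV4 and TRBV31 followed at 0.34 and 0.27 (edgeR adjusted p = 0.934 for both). J use was called for 0 of 12 (0%) by edgeR, with 1 under an unadjusted p of 0.05, and for 0 by DESeq2 with 0 under that p. That segment was TRBJ2-4, at 5.45% ± 0.498 of short rows in the CTX group and 7.08% ± 0.928 in the CTX/CD4 group, a log2 ratio of 0.41 (adjusted p = 0.428 in the edgeR quasi-likelihood test). TRBJ2-1 and TRBJ2-7, with the next lowest p, had log2 ratios of 0.22 and −0.10 (edgeR adjusted p = 0.743 for both). The interaction of length class and group was called for 0 of 22 V (0%) and 0 of 12 J segments (0%) by edgeR, with 1 of each under an unadjusted p of 0.05, TRBV3 at −0.67 and TRBJ2-4 at 0.42. A p that misses the threshold does not show that the groups were alike, and 8 mice limit the precision.

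Short CDR3s recurred between mice more often than longer ones. A nucleotide sequence found in 1 mouse was also found in at least 1 other for 12.7% ± 1.65 of short sequences (SD, n = 8 mice, 10.2% to 15.1%) and for 4.40% ± 0.682 of sequences of 12 to 16 letters (3.78% to 5.78%). The ranges did not overlap, and the short class was higher in 8 of 8 mice. By amino acid sequence with V and J, the shares were 19.2% ± 1.35 and 9.93% ± 0.658. Mice that share a sequence are not independent in this measure, so no test was made. The libraries of CTX/CD4 mice 1 and 2 stood apart by 156 shared sequences of 12 to 16 letters, where the other 27 pairs of mice had 31 to 67, while their 19 shared short sequences lay within the 7 to 21 of the other pairs. Whether these 2 libraries share material was not tested. Without these 2 mice the shares were 9.84% ± 1.55 and 3.12% ± 0.226 (SD, n = 6). Over rows of 2 or more reads in all 8 mice they were 7.27% ± 2.57 and 2.09% ± 1.53. At equal numbers of sequences in both classes the longer share was 0.368% ± 0.0504. The short class was higher in 8 of 8 mice in both of these settings.

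Fewer short sequences had to be searched, yet more matches were found per comparison. The median pair of mice shared 62.3 short nucleotide sequences per 1000000 possible pairs of sequences and 1.07 of the longer class. Among the short nucleotide sequences, 3229 were in 1 mouse, 149 in 2, 34 in 3, 10 in 4, 4 in 5 and 1 in all 8. The share of short nucleotide sequences found in another mouse was 11.3% ± 1.53 in the CTX mice (n = 3) and 13.5% ± 1.18 in the CTX/CD4 mice (n = 5), and that of longer ones was 3.90% ± 0.109 and 4.70% ± 0.709. By amino acid sequence with V and J, the short shares were 19.3% ± 0.905 and 19.2% ± 1.67, so the order of the groups depended on the definition. Without CTX/CD4 mice 1 and 2, a setting chosen after seeing the data, the short nucleotide shares were 8.71% ± 0.615 and 10.97% ± 1.34 and the longer ones 2.99% ± 0.102 and 3.25% ± 0.256 (n = 3 and 3). In this setting the short nucleotide ranges, 8.02% to 9.19% and 10% to 12.5%, did not overlap, while those of longer sequences did. With all 8 mice the short nucleotide ranges were 10.2% to 13.1% and 11.8% to 15.1% and overlapped. Without CTX/CD4 mice 1 and 2, the short shares by amino acid sequence with V and J were 15.3% ± 2.07 and 15.96% ± 1.65, with overlapping ranges. No test of these shares was made. By length, 15.01% ± 3.42 of CDR3s of 10 letters were found in another mouse, 12.2% ± 1.81 of those of 11 letters, 6.57% ± 0.962 at 12 letters and 5.06% ± 0.761 at 14 (SD, n = 8). At 8 and 9 letters, with 55 and 116 rows in all, the shares were 8.65% ± 9.53 and 10.1% ± 11.4, and their order is not resolved.

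**Figure D5:**
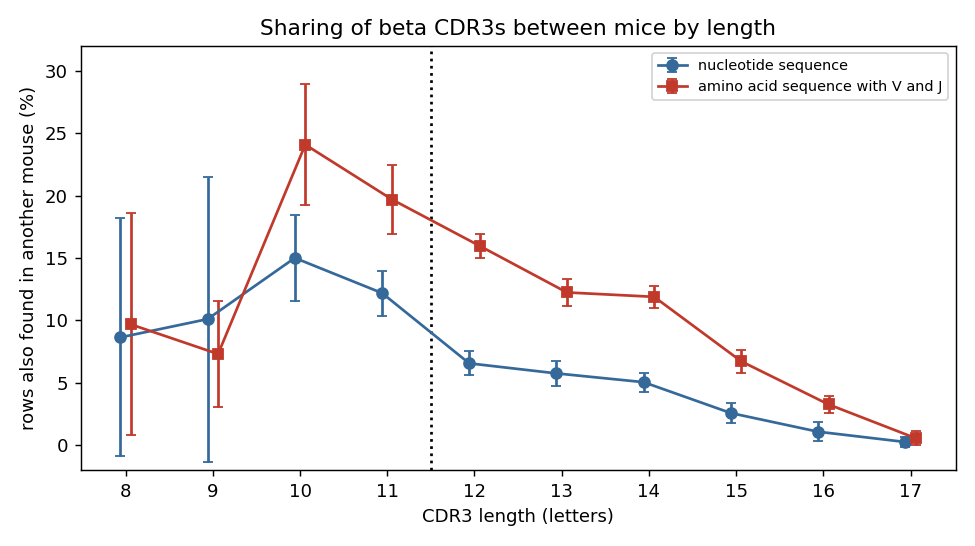
Percent of a mouse's β-chain CDR3s that were also found in another mouse, by CDR3 length, as nucleotide sequences (circles) and as amino acid sequences with V and J (squares), mean ± SD of 8 mice. The nucleotide share is 12.2% at 11 letters and 6.57% at 12 letters, on either side of the dotted limit.

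Shared short sequences lay closer to the germline than the other short sequences. Shared rows held 1.54 ± 0.155 unassigned nucleotides and short rows of 1 mouse held 2.69 ± 0.102 (SD, n = 8). TRBJ2-7 was used by 64.0% ± 7.26 of shared and 41.8% ± 2.29 of other short rows, and TRBV13 segments by 53.6% ± 8.23 and 33.1% ± 2.64. No base lay between V and J in 21.8% ± 5.63 of shared and 3.81% ± 0.782 of other short rows. Of short joins without a base between V and J, 43.1% ± 10.4 recurred, against 14.2% ± 2.31 with 1 to 6 bases and 4.45% ± 2.66 with 7 or more. In the longer class the same 3 shares were 30.1% ± 12.2, 9.30% ± 0.669 and 3.52% ± 0.766. The ranges of short and longer rows overlapped with no base between and with 7 or more, and did not overlap with 1 to 6.

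As amino acid sequences with V and J, the 6 complete short sequences found in 5 or more mice joined a TRBV13 segment or TRBV17 to TRBJ2-7. As nucleotide sequences, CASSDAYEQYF and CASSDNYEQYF with TRBJ2-7 and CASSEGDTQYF with TRBJ2-5 were also found in 5 mice each, listed under 2 V segments each. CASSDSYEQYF (TRBV13-1 and TRBJ2-7) was found in 7 mice by 11 reads in all and in 5 nucleotide forms. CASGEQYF (TRBV13-2 and TRBJ2-7), of 8 letters, was found in all 5 CTX/CD4 mice by 1, 1, 2, 4 and 2 reads and in 0 reads of the CTX mice. A count of 0 of 10000 reads allows a share of up to 0.03%, which is above the share measured in 4 of these 5 mice. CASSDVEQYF (TRBV13-1 and TRBJ2-7) was found in 5 mice, in each of them as the same nucleotide sequence.
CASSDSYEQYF in CTX mice 1, 2 and 3: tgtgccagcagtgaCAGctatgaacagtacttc
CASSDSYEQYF in CTX/CD4 mice 3, 4 and 5: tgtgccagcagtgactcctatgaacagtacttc
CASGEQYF in CTX/CD4 mice 1, 3, 4 and 5: tgtgccagcggtgaacagtacttc
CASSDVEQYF in CTX mice 1 and 3 and CTX/CD4 mice 1, 2 and 4: tgtgccagcagtgatgTtgaacagtacttc
The second of these forms is the first 14 nt of TRBV13-1 followed by the whole 19 nt of TRBJ2-7. In the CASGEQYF form the V and J matches overlap by 3 nt, so either segment could have given those bases. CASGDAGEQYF (TRBV13-2), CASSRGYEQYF (TRBV17) and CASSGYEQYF (TRBV13-1), all with TRBJ2-7, were found in 5 mice each, in 6, 4 and 4 nucleotide forms. Several forms per sequence were not particular to short CDR3s. Among sequences of 12 to 16 letters, 1 sequence of 14 letters (TRBV13-1 and TRBJ2-7) was found in 7 mice in 7 forms.

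The short sequence found in all 8 mice was no complete CDR3. YAEQFF, printed above for CTX mouse 1, lacks the conserved cysteine and is the last 18 nt of the TRBJ2-1 germline piece (chr6:41542754-41542775). It was listed by 9, 4 and 5 reads in the CTX mice and 11, 9, 5, 8 and 6 in the CTX/CD4 mice, 57 in all. The table named TRBV21 as its V in 7 mice and TRBV13-3 in CTX/CD4 mouse 1. Its ranges in the groups overlapped. Without it the group difference in the share of short rows was −0.0609 percentage points (exact Mann–Whitney U-test, two-sided, p = 1, n = 3 and 5).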

How the data were processed

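The authors extracted RNA from sorted cells, reverse transcribed 100 ng with a SMARTer mouse TCR a/b kit, amplified it by nested PCR and sequenced it on a MiSeq. The software named is Scythe and Sickle for adapters, MiXCR for alignment and VDJtools for the chain sequences. The MiXCR version and reference are not given in the sources used here, and the submitters' processing notes name mm10 and bcl2fastq. The deposited counts are reads per CDR3 after down-sampling by the authors to 10000 per library, and the deposited fraction is the count over that total, which was not used further. The α-chain tables were not used. PCR error and unequal amplification are not corrected by molecular identifiers, so rows of 1 read may include errors and read numbers are not cell numbers. Labels give each replicate as a separate sample of its group.

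Members, lists and tests were chosen with earlier results of these data known. CDR3 length is set partly by the germline length of V and J, so segment use is printed with that length. Germline pieces were read from GRCm38 (GENCODE vM21), and trimming was taken from the longest exact match, a step chosen after seeing the data because some deposited positions overlap. Rows per segment (at least 10 rows in 3 columns, or 5 short rows in 3 mice for the groups) were compared with edgeR 4.0.16 in R 4.3.3, with the rows of a column as library size, mouse as a block between length classes, and Benjamini-Hochberg adjustment. DESeq2 1.42.0 was an alternative. Other tests were exact, in Python 3.11.15 with scipy 1.17.1. The Mann–Whitney test was checked on simulated data, and the sign-flip and permutation tests on fixed examples. Named segments were those with adjusted p under 0.05, or the 3 with the lowest p where fewer passed (at most 3 are printed). Named CDR3s were the most abundant short row of each mouse and those found in most mice, and other sequences of 10 or more reads were named after their values were seen.

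Replicate numbers 1 to 3 come from the sample labels and occur in both groups, though the mice are different animals. Deviations of same-numbered mice from their group means, over 31 segments, correlated at 0.626, 0.375 and 0.259 in short rows (−0.619 to 0.379 for mice of different number), but at 0.0612, −0.312 and −0.111 in rows of 12 to 16 letters, a check added afterwards. A replicate block was therefore run as an alternative.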

Additional observations from a re-analysis of the deposited data

Results flagged for a closer look

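The share of reads in short CDR3s of CTX/CD4 mouse 5 was 8.49%, farther from the other 4 mice of its group than Dixon's 95% limit of 0.71 for 5 samples allows. It was the only flag among 49 measures tested, and chance flags about 1 in 20 groups. In that mouse 41.6% of short reads lay in 7 rows of 10 or more reads, and 22.3% of the reads of 12 to 16 letters lay in such rows, the highest of the 8 mice in both classes. By rows its share was 5.92%, within the range of its group.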

How the results depend on the processing

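Main differences are CTX/CD4 minus CTX. The share of short rows (−0.0591 percentage points) changed sign to 0.168 with a limit of 12 letters, 0.162 over rows of 2 or more reads and 0.0173 with replicates 1 to 3 paired by number as a block (exact sign-flip p = 1). Leaving out 1 mouse gave −0.311 to 0.176 (exact p = 0.381 to 1), with 0.176 without CTX mouse 2 and 0.0381 without CTX/CD4 mouse 1. By reads (0.583) it was −0.0194 in rows of fewer than 10 reads, 0.0567 with the replicate block (exact sign-flip p = 1), 1.21 over rows of 2 or more reads (exact p = 0.25), 0.0987 with a limit of 10 letters (exact p = 0.214) and 0.688 with one of 12 (exact p = 0.0714). Leaving out 1 mouse gave 0.142, without CTX/CD4 mouse 5, to 0.767 (exact p = 0.381 to 1). The block called 0 segments between the groups, as did the fits without it, and leaving out 1 mouse likewise gave 0. For the features the counts were also 0 in these settings, but there they decide nothing. The exact sign-flip test of 3 pairs allows no p below 0.25. With 1 mouse left out, the exact Mann–Whitney test of the features cannot reach the threshold either.

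Of the 3 count classes, 2 passed when reads were summed per amino acid sequence with V and J, without CTX mouse 2 and without CTX/CD4 mouse 4, and 0 without any other mouse (0 to 2). Of the amino acids, 9 passed, 15 with a wider window (phenylalanine at 0.173 in place of 0.635), 6 weighted by reads, 8 against rows of 14 letters and 9 to 10 with 1 mouse left out. The sharing difference of 8.30 percentage points was 6.72 without CTX/CD4 mice 1 and 2, 5.18 over rows of 2 or more reads and 12.3 at equal numbers of sequences in both classes. Nucleotides from neither V nor J differed by −5.02 with germline matching and −4.47 by deposited positions. V calls numbered 13 to 14 and J calls 12 to 12 with 1 mouse left out. With a limit of 10 letters 11 V segments passed. TRBV13-3 turned to −0.0822, TRBV12-2 (−0.46) and TRBV2 (−0.65) no longer passed, TRBV31 passed at 0.92, and TRBV13-2 moved to 1.12 and TRBV17 to −1.20. With TMM scaling TRBJ2-1, TRBJ2-4 and TRBJ2-5 turned to 0.0640, 0.254 and 0.116, and TRBJ1-5 (−0.55) no longer passed. Weighted by reads, 10 V segments passed, without TRBV13-2, TRBV13-3 and TRBV17. The causes were not tested. With 6 to 123 reads in the largest short row of a mouse, sequences at 1 or 2 reads cannot be called absent elsewhere.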
